A study of Macaca fascicularis with 56 samples.

Results

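The change of gene expression in blood over the first 2 h was compared between cynomolgus macaques given LR12 and macaques given its scrambled form. For each animal the log2 array intensity at 0 h was subtracted from that at 2 h, and the changes of the 6 LR12 animals (Y31309 to Y31314) were set against those of the 4 peptide control animals (Y31305 to Y31308). These 10 animals, with 20 arrays, came from a series of 14 animals and 56 arrays that also held 4 vehicle animals (Y31301 to Y31304) and arrays at 4 and 8 h. The labels give no age or sex of the animals. Blood was drawn into PAXgene tubes, so each value is the average over all cells of whole blood. Per the series title, an endotoxin challenge came first and LR12 or LR12-scrambled after it. The labels give no dose, do not say at which point of that protocol 0 h lay, and do not say whether the vehicle animals received endotoxin. The comparison asks whether the early blood response differed between the active and the scrambled peptide. It covered 16020 genes, each read by 1 probe set of an array designed on human sequence, so levels were compared between arms for 1 gene and never between genes.

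Endotoxin is sensed by Toll-like receptor 4 on monocytes and neutrophils, which turns on NF-kB target genes for cytokines, chemokines and their own inhibitors. TREM-1 is a receptor on the same cells that amplifies this signal through the adaptor DAP12. LR12 is a short peptide derived from TREML1 (TREM-like transcript 1) that binds the ligands of TREM-1 and so acts as a decoy, and a scrambled peptide keeps its amino acids in another order. In whole blood, a lower value can mean fewer cells of a type or less RNA per cell, and these cannot be told apart here.

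The arrays carried the defining genes of whole blood: on the 20 arrays the log2 intensity ran from 13.4 to 14.6 for HBB, the beta chain of hemoglobin, from 12.6 to 14.6 for S100A8, an abundant neutrophil protein, and from 9.87 to 11.9 for CD3D, a chain of the T cell receptor complex. One peptide control animal stood apart. Across all genes, the change of Y31305 at 2 h correlated with the mean change of the LR12 animals at -0.0015, against 0.42 to 0.55 in the other 3 peptide control animals and 0.52 to 0.66 in the LR12 animals, each LR12 animal being set against the mean of the other 5. Its correlation was 0.13 at 4 h and 0.066 at 8 h. One animal labelled vehicle, Y31303, correlated at 0.37, while the other 3 vehicle animals lay between -0.014 and 0.24. By these values Y31305 was unlike the other animals of its arm, and Y31303 was the highest of the vehicle animals. Whether the labels of these animals were exchanged was not tested. The labels were followed as deposited, and results that rest on the animal labelled Y31305 are given with and without it.

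The poly-A control transcripts, bacterial RNAs that are added to a sample before labelling, split the arrays in 2 sets at a gap between 8.25 and 8.94 in their mean log2 intensity. At 0 h the high set held 1 of 6 LR12 arrays and 3 of 4 peptide control arrays, and at 2 h it held 1 of 6 LR12 arrays and 1 of 4 peptide control arrays. The changes of this control level were 0.20, -2.52, 3.01, 0.46, -0.0071 and 0.39 in the LR12 animals in order of their number, against -3.53, -1.61, 0.80 and -2.75 in the peptide control animals. The clear drops were thus in 1 LR12 animal and 3 peptide control animals, so this level moved with the arms. Fits with it as a covariate are given beside the results, and its part in them was not tested otherwise.

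No gene passed the test of the difference. Of 16020 genes, 0 (0%) had a difference in change between LR12 and the peptide control at an adjusted p below 0.05 (limma with Benjamini-Hochberg adjustment), and the smallest adjusted p was 0.111. At an unadjusted p below 0.05 there were 2773 genes, 528 with a higher change in LR12 (3.3%) and 2245 with a lower change (14%). An offset of 16 added before taking log2 gave 328 called genes, of which 314 were lower, and a stricter filter on dim probe sets gave 142, of which 135 were lower. A floor at the 20th percentile of each array gave 0, with a smallest adjusted p of 0.0924. With the animal as a random block over all 56 arrays 188 genes were called, 174 of them lower. The median difference over all genes was -0.16 (-0.13 without Y31305), which is the value against which the medians of gene groups below should be read.

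Within the arms the counts were unequal. In the LR12 animals, 1708 genes rose (10.7%) and 3953 fell (24.7%) from their own 0 h values. In the 4 peptide control animals 0 genes (0%) were called by limma, with 3005 at an unadjusted p below 0.05 and a smallest adjusted p of 0.0610. Without Y31305, 550 genes rose (3.43%) and 478 fell (2.98%) in the remaining 3 peptide control animals. A call in 1 arm and none in the other does not show a difference between them, since the arms differ in number of animals and in spread. Without Y31305 the difference had an unadjusted p below 0.05 for 418 genes with a higher change (2.61%) and 1606 with a lower change (10%), again with 0 called and a smallest adjusted p of 0.117. With the poly-A control level as a covariate the counts were 336 (2.1%) and 1467 (9.16%), with a smallest adjusted p of 0.349.

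Of a panel of 40 genes of inflammation and blood leukocytes, 37 were measured, and none was called in the difference between the arms. The median change of the panel was 0.94 to 2.12 in the LR12 animals. In the peptide control animals it was -0.092 (Y31305), 2.11, 2.41 and 1.46. The part of endotoxin in these changes was not tested. In LR12 24 of the 37 rose and 6 fell, beside 10.7% and 24.7% of all genes. Y31305 had the lowest change of the 4 peptide control animals for 23 of the 24 that rose and the highest for all 6 that fell. The difference LR12 minus peptide control was above 0 for 24 of the 37 with all animals and for 16 without Y31305, and the panel's median difference was 0.50 with it and -0.15 without it.

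IL1B encodes interleukin 1 beta, a main inflammatory cytokine of monocytes. Its changes were 4.41, 3.55, 4.11, 3.72, 3.60 and 2.91 in the LR12 animals, against -0.40, 3.12, 3.81 and 2.88 in the peptide control animals. Every animal but Y31305 was high, and the arms overlapped. The difference was 1.36 (95% interval -0.32 to 3.04, adjusted p = 0.393), and 0.45 without Y31305 and 0.62 with the poly-A covariate. ICAM1, an adhesion molecule that NF-kB induces, changed by 4.59, 6.06, 5.34, 6.27, 5.67 and 5.02 in the LR12 animals, and its values were -0.21, 5.73, 4.99 and 5.38 in the peptide control animals. Its difference of 1.52 (95% interval -0.93 to 3.97) became 0.12 without Y31305 and 0.98 with the poly-A covariate. The chemokine gene CCL2, which draws monocytes, had a mean change of 4.56 ± 1.23 (SD, n = 6) in LR12 and 3.36 ± 2.57 (SD, n = 4) in the peptide control, with Y31305 at -0.25. Its difference was -0.0027 without Y31305, 2.00 without Y31307 and -0.17 with the poly-A covariate. For these 3 genes most of the gap between the arm means lay in 1 animal.

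**Figure D1:**
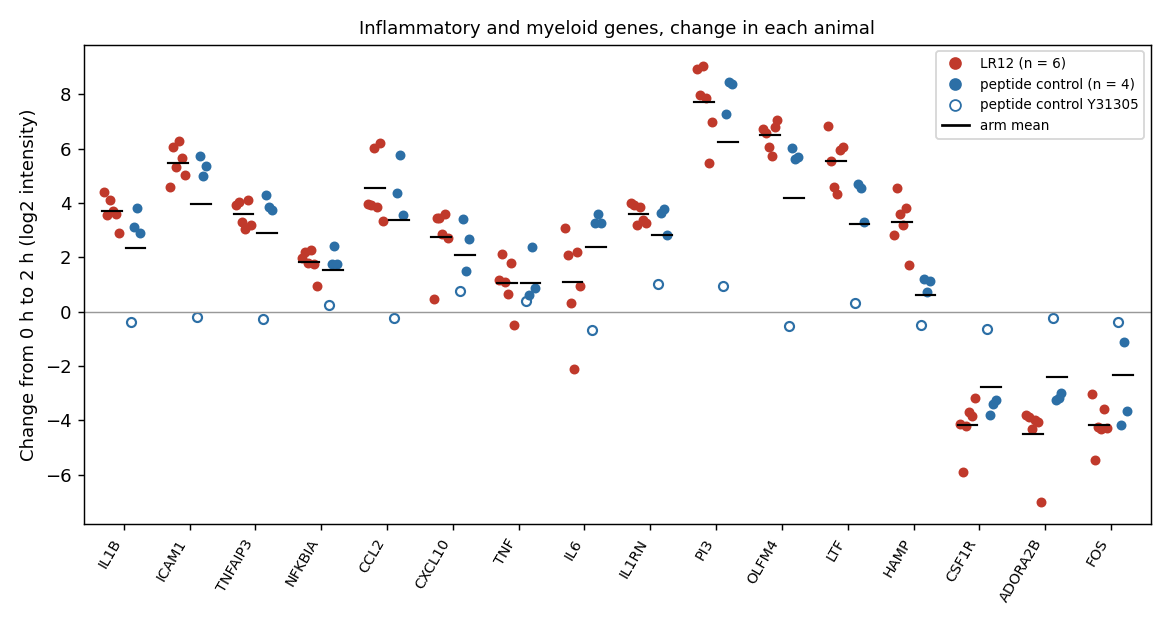
Change from 0 h to 2 h in log2 intensity (y axis) of 16 inflammatory and myeloid genes (x axis), with 1 point per animal, LR12 in red on the left and peptide control in blue on the right of each pair, Y31305 as an open circle, and black bars for arm means. Y31305 lies near 0 for IL1B (-0.40), ICAM1 (-0.21) and CSF1R (-0.62), while the other 3 peptide control animals lie at 2.88 or above for IL1B, 4.99 or above for ICAM1 and -3.27 or below for CSF1R.

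The NF-kB feedback genes, which include the inhibitors that NF-kB itself induces, showed the same picture. All 20 measured members rose in LR12, beside 10.7% of all genes, and 15 rose in the peptide control without Y31305, beside 3.43% of all genes. Their median difference was 0.56, and 0.08 without Y31305, with 3 higher and 0 lower at an unadjusted p below 0.05 either way. Over all genes 3.3% were higher and 14% lower, or 2.61% and 10% without Y31305. TNFAIP3, the A20 protein that ends NF-kB signalling, changed by 3.60 ± 0.47 (SD, n = 6) in LR12 and had a mean of 2.90 ± 2.13 (SD, n = 4) in the peptide control. Its difference was 0.70 with all animals, -0.36 without Y31305, 1.17 without Y31306 and 0.30 with the poly-A covariate. NFKBIA, the cytoplasmic inhibitor of NF-kB, had a difference of 0.28 (95% interval -0.72 to 1.29) and of -0.15 without Y31305, 0.46 without Y31314, 0.57 without Y31307 and 0.031 with the poly-A covariate. NFKB2, the gene of the p100 subunit, changed by 2.65 to 3.80 (median 3.01) in LR12, against 0.17, 2.35, 2.25 and 2.27 in the peptide control. Its difference was 1.40 (adjusted p = 0.195), and 0.87 without Y31305. CFLAR, an inhibitor of death receptor signalling, had a difference of 1.17 (adjusted p = 0.164), and 0.68 with the poly-A covariate. IL1RN, the natural antagonist of the interleukin 1 receptor, rose in LR12 by 3.61 (adjusted p = 0.000351) and differed from the peptide control by 0.79, or 0.20 without Y31305 and 0.51 with the poly-A covariate.

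IL6 and TNF did not follow this pattern. IL6 encodes interleukin 6, the cytokine that drives the acute phase response. Its changes were 3.08, 2.10, 0.31, -2.11, 2.21 and 0.95 in the LR12 animals, against -0.66, 3.27, 3.60 and 3.26 in the peptide control animals. All 6 LR12 values lay below the 3 values of Y31306, Y31307 and Y31308, and Y31305 lay between the lowest and the next LR12 animal. The difference was -1.28 (95% interval -3.77 to 1.21, adjusted p = 0.598), -2.29 without Y31305, -0.64 without the LR12 animal Y31312 and -0.83 with the offset of 16. The levels of IL6 were low, from 2.21 to 4.93 in LR12 and from 2.39 to 3.56 in the peptide control at 0 h, around the mean array median of 4.19. TNF, the early cytokine of the endotoxin response, changed by 1.16, 2.11, 1.10, 0.64, 1.78 and -0.49 in LR12 animals, against 0.39, 0.60, 2.40 and 0.86 in the peptide control animals, and its difference was -0.011 (95% interval -1.26 to 1.24), with -0.24 to 0.43 when 1 animal was left out. CXCL10, a chemokine induced by interferon, had a difference of 0.66 (95% interval -0.94 to 2.27), and 0.22 without Y31305, 1.11 without Y31306 and 1.12 without the LR12 animal Y31309. The 20 measured inflammatory cytokines had a median difference of -0.18 (-0.24 without Y31305), with 1 higher and 0 lower at an unadjusted p below 0.05. The 20 chemokines had one of -0.16 (-0.57 without Y31305), with 1 higher and 2 lower. Over all genes 3.3% were higher and 14% lower.

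None of the 12 genes of smallest p with a higher change in LR12 was called. They were chosen by p, and their changes did not overlap between the arms. The same held for 108 of the 528 genes with a higher change at an unadjusted p below 0.05. The share without overlap among all genes was not counted, so the lack of overlap only describes these genes. HAMP encodes hepcidin, the hormone that blocks iron export and that myeloid cells also make under inflammation. Its changes were 2.83, 4.57, 3.60, 3.18, 3.80 and 1.72 in the LR12 animals, against -0.50, 1.19, 0.73 and 1.12 in the peptide control animals. The difference was 2.65 ± 0.58 (SE), with a 95% interval of 1.38 to 3.93 and an adjusted p of 0.112, and it was 2.28 without Y31305 and 2.75 with the poly-A covariate. Its levels at 0 h were 5.44 ± 0.37 (SD, n = 6) in LR12 and 5.82 ± 0.35 (SD, n = 4) in the peptide control, and at 2 h they were 8.72 ± 0.97 in LR12 and 6.46 ± 1.01 in the peptide control. The vehicle animals had changes of 0.48, 0.30, 2.64 and 0.24, with the high value in Y31303. HAMP was among the genes called with the offset of 16 (adjusted p = 0.0336).

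GRB10, an adaptor that damps insulin and growth factor receptors, changed by 1.86, 1.92, 1.72, 1.86, 1.59 and 1.51 in the LR12 animals, against 0.072, 0.58, 1.04 and 0.047 in the peptide control animals. The 6 LR12 values lay close together and above all 4 peptide control values, and the difference was 1.31 ± 0.29 (SE, adjusted p = 0.112). HIP1, a clathrin-binding protein of endocytosis, had a difference of 1.29 (1.84 in LR12 and 0.55 in the peptide control), although 1 of its 4 probe sets had the opposite sign. GSG1, a gene named for germ cells, had changes of 4.25 to 5.98 in LR12, against 1.56 to 3.72 in the peptide control. Its levels at 0 h were 0.66 in LR12 and 1.55 in the peptide control, far below the array median, and its difference of 2.46 became 0.89 with the offset of 16. GPR4, a receptor that senses protons, had 0.29 to 1.60 in LR12, against 0.14, -1.48, -2.51 and -1.45 in the peptide control. NIBAN1, a stress-induced protein, had a mean change of 0.97 in LR12 and -0.24 in the peptide control.

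For the other 6 the mean change was above 0 in LR12 and below 0 in the peptide control. SIKE1, a suppressor of the kinase IKK epsilon, changed by 0.45 in LR12 and had a mean of -0.55 in the peptide control. SLC2A13, a transporter of myo-inositol, had 1.16 in LR12 and -0.21 in the peptide control, and MGME1, an exonuclease of mitochondrial DNA, had 0.27 in LR12 and -0.89 in the peptide control. The RNAs without a protein product were ANKRD42-DT (difference 1.51), LINC01477 (1.11) and TRIM52-AS1 (2.16). With the offset of 16 these differences became 0.99, 0.57 and 0.97, and that of TRIM52-AS1 was 1.41 with the poly-A covariate. LINC01477 and TRIM52-AS1 were dim at 0 h, with levels of 3.87 and 3.11 in LR12, below the mean array median. For all 12 of these genes the mean 0 h level was lower in LR12 than in the peptide control, by 0.39 for HAMP (a level difference of -0.39) up to 1.37 for TRIM52-AS1 (-1.37). ANKRD42-DT had 4.35 in LR12 and 5.45 in the peptide control at 0 h, and 5.26 in LR12 and 4.85 in the peptide control at 2 h.

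The 12 genes of smallest p with a lower change in LR12 fell in the LR12 arm, and for 8 of them the mean change of the peptide control lay above 0. None of the differences was called. PANX1, a membrane channel that releases ATP, changed by -0.84, -1.33, -1.32, -0.98, -1.27 and -0.94 in the LR12 animals, against 0.53, 0.49, 0.34 and 0.84 in the peptide control animals. The arms lay well apart, and Y31305 lay among its arm mates. The difference was -1.66 ± 0.21 (SE), with a 95% interval of -2.13 to -1.19 and an adjusted p of 0.111, and it was -1.67 without Y31305 and -1.61 with the poly-A covariate. Levels were 9.26 in LR12 and 8.72 in the peptide control at 0 h, and 8.15 in LR12 and 9.27 in the peptide control at 2 h, so the order of the arms turned round between the hours. SELP, the adhesion receptor P-selectin of platelets and endothelium, changed by -0.40, -0.69, -1.71, -0.81, -1.69 and -1.23 in LR12 animals, against 1.06, 0.92, 1.24 and 0.74 in peptide control animals, a difference of -2.08 (95% interval -2.76 to -1.40). ALDOC, the aldolase C of glycolysis, had -1.55 ± 0.28 (SD, n = 6) in LR12 and 0.22 ± 0.23 (SD, n = 4) in the peptide control. PPOX, an enzyme of heme synthesis, had -0.89 in LR12 and 0.47 in the peptide control. For all 12 of these genes the mean 0 h level was higher in LR12 than in the peptide control, by 0.078 for PPOX up to 1.10 for CD7. For ALDOC the level difference was 0.95 at 0 h and -0.81 at 2 h.

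ABHD10, a mitochondrial enzyme that removes fatty acids from proteins, changed by -2.39, -2.64, -3.16, -3.82, -2.57 and -3.58 in LR12 animals, against -0.62, -0.49, -0.67 and -0.96 in peptide control animals. Every animal of both arms was below 0, and the LR12 values were lower by 2.34 on average (95% interval of the difference -3.20 to -1.49). AMDHD1, an enzyme of histidine breakdown, had -4.06 to -5.34 in LR12, against -0.63 to -2.16 in the peptide control, but its level at 2 h was 0.56 in LR12 and 3.77 in the peptide control, below the array median in both. Its difference of -3.40 became -0.91 with the offset of 16 and -1.81 with values set to at least the 20th percentile of their array. STMN1, a microtubule destabiliser of dividing cells, had -2.13 in LR12 and -0.25 in the peptide control, and CLYBL, a mitochondrial lyase, had -1.80 in LR12 and 0.19 in the peptide control. LARP1B, an RNA-binding protein, had a difference of -1.38, with 4 of its 6 probe sets of the same sign, and TMEM204, a membrane protein, one of -2.28, with 2 of 3. As the mean of a gene's kept probe sets the difference was -0.36 for LARP1B, -1.06 for TMEM204 and -1.31 for ABHD10. The remaining ones, CD7 and SLA2, are genes of T and natural killer (NK) cells and stand with them below.

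**Figure D2:**
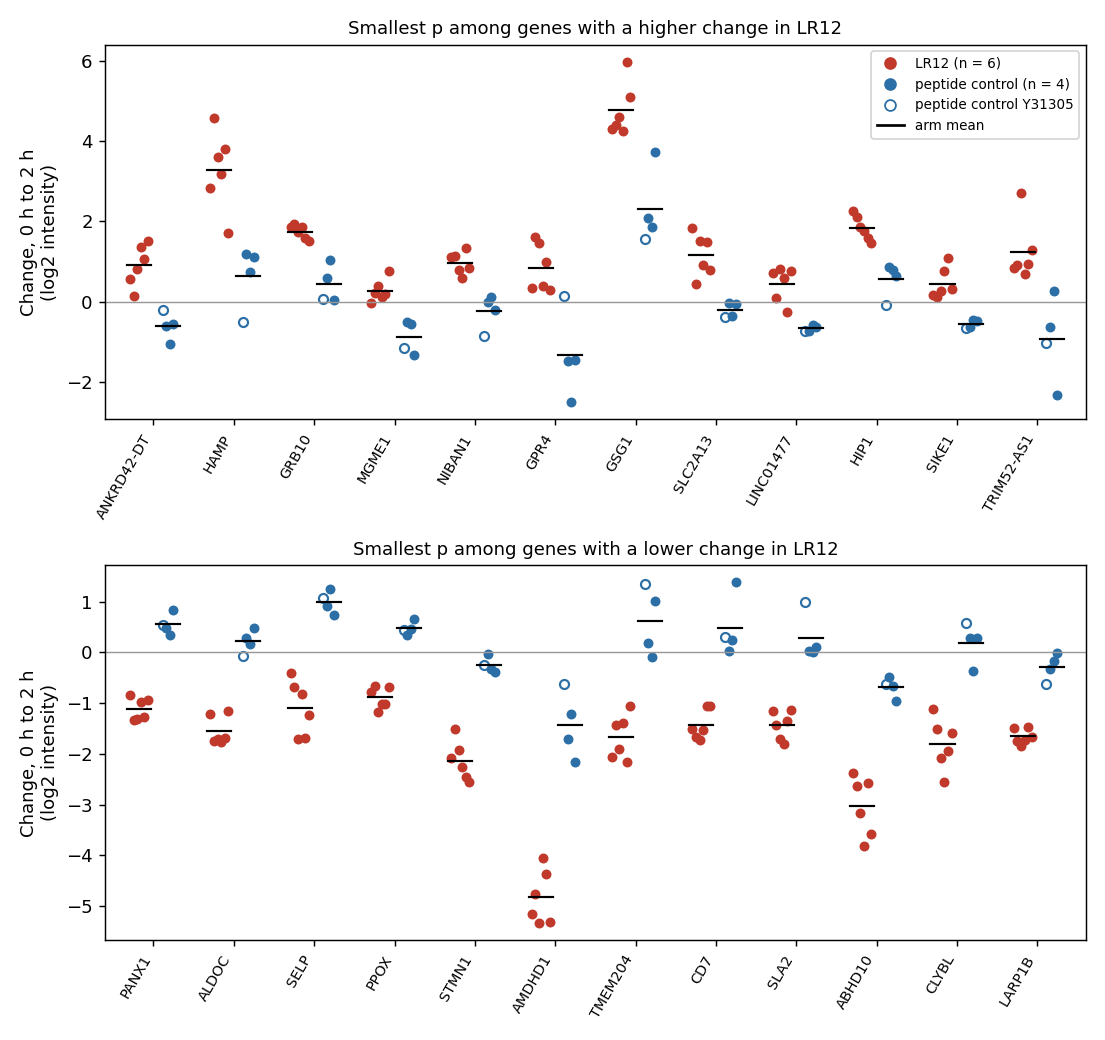
Change from 0 h to 2 h in log2 intensity (y axis) of the 12 genes of smallest p in each direction (x axis), with 1 point per animal, LR12 in red on the left and peptide control in blue on the right of each pair, Y31305 as an open circle, and black bars for arm means. The arms do not overlap for any of the 24, which were chosen by p. Of the genes at an unadjusted p below 0.05, 108 of 528 higher and 785 of 2245 lower ones do not overlap, and the share among all genes was not counted. Y31305 lies near its arm mates for PANX1 (0.53) and SELP (1.06).

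With the offset of 16, 8 of the 12 higher and 11 of the 12 lower genes passed an adjusted p below 0.05, and with the stricter filter 7 and 12 did. With the floor at the 20th percentile 0 of the 24 passed. The stricter filter keeps a gene that is bright in 1 group of arm and hour, so it reads the groups it then tests. With the animal as a random block over all 56 arrays, 4 and 10 passed. All 24 kept their sign without Y31305 and with the poly-A covariate. With the mean of a gene's kept probe sets in place of 1 probe set, 0 of the 24 passed. The difference was then 0.59 in place of 1.37 for SLC2A13, and -1.08 in place of -1.66 for PANX1.

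T cell genes formed the group with the lowest median difference of the 35 lists. All 22 measured T cell markers had a lower change in LR12, and the median difference was -1.20 (-1.18 without Y31305, -1.24 with the poly-A covariate), beside -0.16 over all genes. Of the 22, 14 were lower at an unadjusted p below 0.05, beside 14% of all genes, and 0 were called. In LR12 19 of the 22 fell, while their median change was -0.13 in the peptide control. LCK, the kinase that starts T cell receptor signalling, changed by -1.21, -2.83, -2.35, -2.75, -2.44 and -2.74 in the LR12 animals, against 0.53, -0.43, -1.18 and 0.41 in the peptide control animals. The highest LR12 animal, Y31309, lay just below the lowest peptide control animal, Y31307. The difference was -2.22 ± 0.45 (SE, 95% interval -3.22 to -1.23, adjusted p = 0.112).

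The same held for the adaptor LAT, which LCK's pathway uses, with -0.91 ± 0.33 (SD, n = 6) in LR12 and 0.47 ± 0.26 (SD, n = 4) in the peptide control. GATA3, a transcription factor of T cell development, had -2.36 in LR12 and -0.27 in the peptide control, and the surface receptor CD6 had -1.85 in LR12 and 0.0018 in the peptide control. CD7, a surface protein of T and NK cells, changed by -1.51, -1.67, -1.73, -1.54, -1.06 and -1.06 in the LR12 animals, against 0.29, 0.032, 0.25 and 1.38 in the peptide control animals. SLA2, an adaptor that limits T cell receptor signalling, had -1.43 ± 0.28 (SD, n = 6) in LR12 and 0.28 ± 0.47 (SD, n = 4) in the peptide control. CCR7, the homing receptor of naive T cells, had a change of -0.13 in LR12 and of 0.91 in the peptide control, with Y31305 the only peptide control animal within the LR12 range.

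Part of these differences lay in the 0 h levels. The level difference, LR12 minus peptide control, was taken for each of the 22 T cell genes. Its median over these genes was 0.32 at 0 h and -0.86 at 2 h. For LCK the levels were 10.8 in LR12 and 9.88 in the peptide control at 0 h, and 8.41 in LR12 and 9.71 in the peptide control at 2 h. For CD7 the 0 h levels were 9.39 in LR12 and 8.29 in the peptide control, with 7.96 in LR12 and 8.78 in the peptide control at 2 h. Over the 2245 genes with a lower change at an unadjusted p below 0.05, the median level difference was 0.27 at 0 h and -0.89 at 2 h, and over the 528 with a higher change it was -0.49 at 0 h and 0.61 at 2 h. A difference in change picks up a gap of either sign at 0 h by construction.

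**Figure D3:**
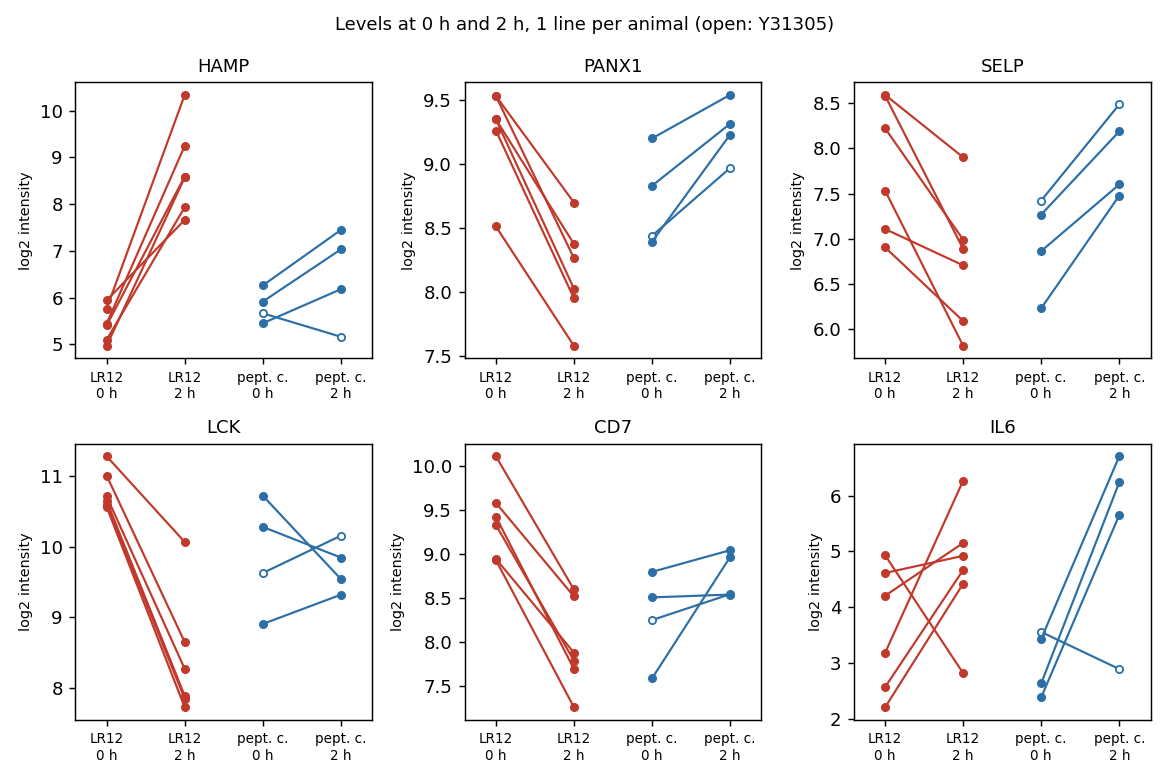
Log2 intensity (y axis) of 6 genes at 0 h and 2 h, with 1 line per animal, the 6 LR12 animals in red on the left and the 4 peptide control animals in blue on the right of each panel, and Y31305 with open circles. HAMP climbs in all 6 LR12 animals (mean level 8.72 at 2 h), LCK and CD7 drop in all 6, and the mean level of PANX1 is higher in LR12 at 0 h and lower at 2 h.

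The T cell result also moved with the poly-A controls in the control arms. The median change of the T cell genes was -0.45, -1.68, -1.25, -2.04, -1.28 and -1.51 in the LR12 animals, against 0.03, 0.0018, -0.37 and 0.19 in the peptide control animals and -1.002, -0.85, 0.57 and 0.15 in the vehicle animals. The 3 control animals with both arrays in the low set, Y31307, Y31301 and Y31302, had the 3 lowest medians of the 8, and the 4 with a high array at 0 h and a low array at 2 h had medians between 0.03 and 0.57. Among the LR12 animals, Y31310 went from a high to a low array with -1.68, and Y31311 from a low to a high array with -1.25. Among animals with both arrays in the low set, LR12 had -0.45, -2.04, -1.28 and -1.51, against -0.37 in the 1 peptide control animal of this kind. For LCK the difference was -1.97 with the poly-A covariate and -1.48 in the 6 animals with both arrays in one set (4 LR12 and 2 peptide control). Of these 2, Y31306 had a poly-A change of -1.61. With Y31306 counted as changed, which left Y31307 as the only peptide control animal, the LCK difference was -1.11.

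**Figure D4:**
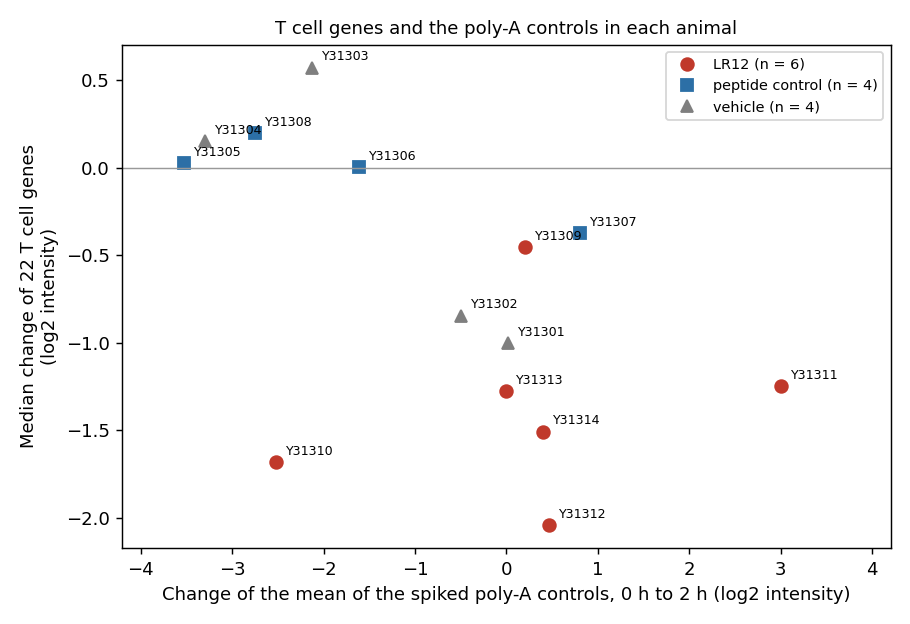
Median change of 22 T cell genes from 0 h to 2 h (y axis, log2 intensity) against the change of the mean poly-A control level (x axis, log2 intensity), with 1 point per animal and the arm given by colour and shape. The 6 LR12 animals lie between -2.04 and -0.45 on the y axis at poly-A changes from -2.52 to 3.01, and the peptide control animals lie between -0.37 and 0.19.

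Genes of NK and cytotoxic cells had a median difference of -0.98, which was -0.62 without Y31305. Of the 25 measured, 11 were lower and 0 higher at an unadjusted p below 0.05, beside 14% and 3.3% of all genes. Without Y31305 6 were lower, beside 10% of all genes. Their median level difference was 0.64 at 0 h and -0.16 at 2 h, so for this list the gap at 0 h was the larger one. CTSW, a protease of cytotoxic lymphocytes, changed by -1.58 to -2.64 in LR12, against 0.60, -0.83, -0.54 and 0.37 in the peptide control, a difference of -1.99 (adjusted p = 0.112). GZMM, a granzyme of NK cells, had a difference of -1.70, and S1PR5, the receptor by which NK cells leave tissues, one of -1.96 (-1.13 with the offset of 16). GZMH, another granzyme, had a level of 10.7 in LR12 and 9.23 in the peptide control at 0 h, and 8.08 in LR12 and 8.11 in the peptide control at 2 h, and its difference in change of -1.50 became -0.92 with the poly-A covariate. CCL5, a chemokine that T and NK cells store, had -2.03 ± 0.34 (SD, n = 6) in LR12 and -0.52 ± 0.51 (SD, n = 4) in the peptide control.

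B cell genes had a median difference of -0.96, and -0.68 without Y31305. Of the 24 measured, 10 were lower, beside 14% of all genes, and without Y31305 7 were, beside 10%. BLNK, an adaptor of the B cell receptor, changed by -2.22 ± 0.52 (SD, n = 6) in LR12 and had 0.28, -0.99, -1.39 and -0.31 in the peptide control. EBF1, a transcription factor that sets B cell identity, had -2.46 in LR12 and -0.74 in the peptide control, and CD79A, a chain of the B cell receptor, -2.13 in LR12 and -0.96 in the peptide control. CR2, the complement receptor of B cells, had a difference of -1.75, which became -0.47 with the offset of 16, and its level at 2 h was 1.23 in LR12 and 2.96 in the peptide control. The B cell genes had a median level difference of -0.06 at 0 h and of -0.84 at 2 h.

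The genes of MHC class II presentation, by which monocytes, dendritic and B cells show peptides to T cells, had a median difference of -1.02. Without Y31305 the median was -0.70. Of the 15 measured, 7 were lower, beside 14% of all genes, and without Y31305 3 were, beside 10%. CD74, the invariant chain, fell in LR12 by 2.44 and had -0.64, -1.27, -1.30 and -1.82 in the peptide control, and its difference was -1.18 (adjusted p = 0.267). HLA-DPA1 had -2.31 in LR12 and -0.82 in the peptide control, with 2 of its 3 probe sets of the same sign. HLA-DOB, a regulator of peptide loading, had -2.26 in LR12 and -0.57 in the peptide control, with 1 of 2 probe sets of the same sign. Dendritic cell genes had a median difference of -0.61 that became -0.21 without Y31305. Of the 20 measured, 4 were lower, beside 14% of all genes, and without Y31305 2 were, beside 10%. LILRA4, a receptor of plasmacytoid dendritic cells, changed by -2.16 to -4.25 in LR12, against 0.23, -1.94, -0.15 and -1.02 in the peptide control.

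**Figure D5:**
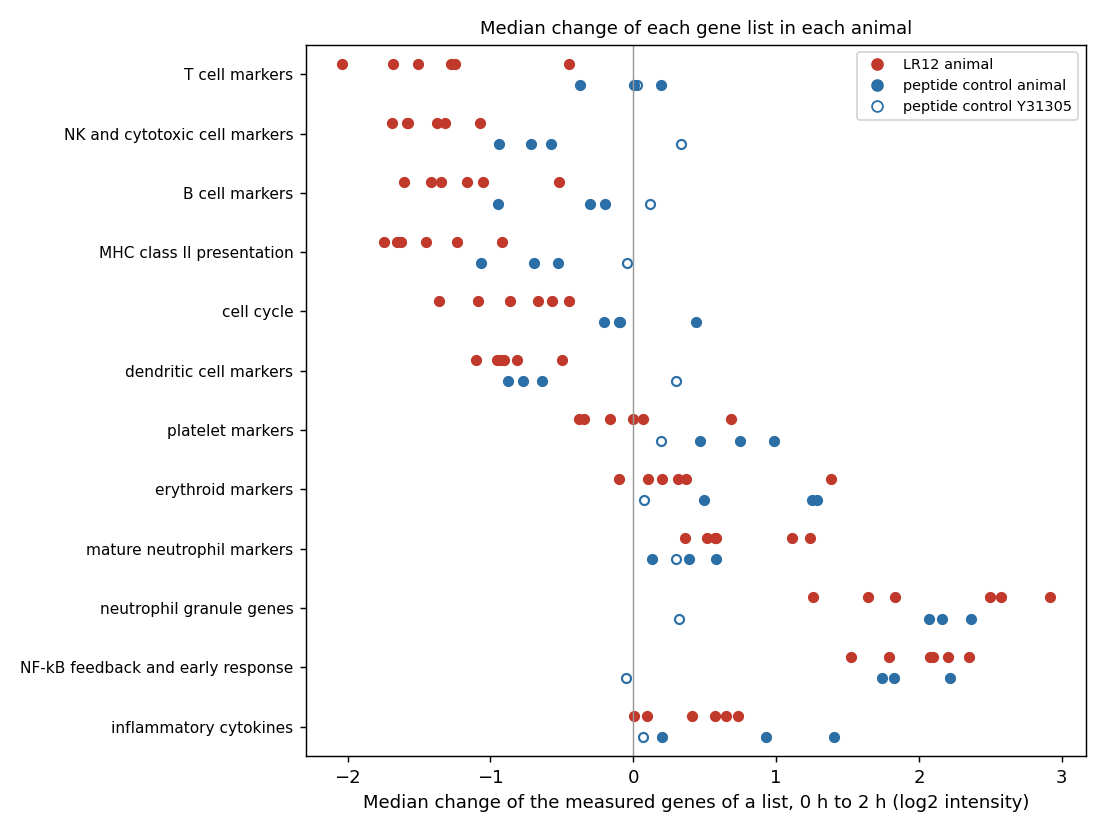
Median change of the measured genes of 12 lists (y axis) from 0 h to 2 h in log2 intensity (x axis), with 1 point per animal, LR12 in red above and peptide control in blue below, and Y31305 as an open circle. The T cell medians of LR12 lie from -2.04 to -0.45, below all 4 peptide control animals, while for the NF-kB feedback genes 3 peptide control animals lie among the LR12 animals and Y31305 lies at -0.05.

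Genes of neutrophils and monocytes had no member called. The mature neutrophil markers had a median difference of 0.31 (0.31 without Y31305; 21 measured, 2 higher), and the monocyte markers one of -0.20 (17 measured, 2 higher and 1 lower). Over all genes 3.3% were higher and 14% lower. S100A12, a calcium-binding alarm protein of neutrophils, rose in LR12 by 3.37 and had a mean of 1.94 in the peptide control. PROK2, a neutrophil chemokine-like peptide, had 2.59 in LR12 and 1.28 in the peptide control, with Y31305 at -0.62, and its difference of 1.31 became 0.68 without that animal and 0.77 with the poly-A covariate. FCN1, a lectin of monocytes, had 1.18 in LR12 and 0.50 in the peptide control, and CCR2, the receptor for CCL2, had -0.60 in LR12 and 0.14 in the peptide control. CSF1R, the receptor that keeps monocytes alive, fell in LR12 by 4.16 and had -0.62, -3.80, -3.39 and -3.27 in the peptide control animals, and its difference of -1.39 became -0.68 without Y31305. ADORA2B, an adenosine receptor, had -3.82 to -7.02 in LR12, against -0.24, -3.26, -3.17 and -3.01 in the peptide control, and its difference of -2.09 became -1.37 without Y31305. FOS, an immediate early transcription factor, fell in LR12 by 4.16, with a difference of -1.82 (-1.16 without Y31305).

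Neutrophil granule genes, which encode stored antimicrobial proteins, were measured with 23 members. Of these, 16 rose in LR12, beside 10.7% of all genes, and 13 rose in the peptide control without Y31305, beside 3.43%. The median difference was 0.71, or 0.30 without Y31305. OLFM4, a protein of specific granules, changed by 6.49 ± 0.50 (SD, n = 6) in LR12, against -0.55, 6.03, 5.61 and 5.71 in the peptide control animals, and its difference of 2.29 became 0.71 without Y31305. LTF, lactoferrin, had 4.33 to 6.83 in LR12, against 0.32, 4.69, 4.56 and 3.32 in the peptide control, a difference of 2.33 (adjusted p = 0.234) and 1.36 without Y31305. CRISP3, another granule protein, had 6.50 in LR12 and 4.79 in the peptide control, and the difference of 1.71 became 0.47 without Y31305. CEACAM8, an adhesion molecule of granulocytes, had 0.32 to 1.96 in LR12, against -0.49, 0.054, 0.058 and -0.31 in the peptide control, a difference of 1.11 that was 1.01 without Y31305. PI3, the protease inhibitor elafin, had the largest mean change of the genes named here, 7.70 in LR12, with 0.94, 7.29, 8.46 and 8.37 in the peptide control. Its difference of 1.44 was -0.33 without Y31305, 2.17 without Y31307 and 0.16 with the poly-A covariate.

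The TREM-1 pathway was measured with 21 genes, which had a median difference of 0.14. At an unadjusted p below 0.05, 1 was higher and 3 were lower, beside 3.3% and 14% of all genes. TREM1 itself had changes of 1.83, 1.89, -0.47, 0.69, 0.10 and 0.43 in the LR12 animals, against 0.63, 0.069, -0.057 and -0.32 in the peptide control animals. The arms overlapped, and the difference was 0.67 (95% interval -0.41 to 1.74, adjusted p = 0.520), 0.44 without the LR12 animal Y31310 and 1.24 with the poly-A covariate. TREML1, the platelet gene from whose product LR12 derives, had 0.68, 0.24, -0.10, 0.14, -0.10 and -0.013 in LR12, against 0.17, 0.87, 1.49 and 1.21 in the peptide control. Its difference was -0.80 (adjusted p = 0.219) and -1.05 without Y31305, where the arms did not overlap. HCST, the adaptor DAP10 of NK and T cells, had -1.09 to -1.93 in LR12, against 1.45, 0.42, -0.75 and 0.42 in the peptide control. TREML4, a receptor of myeloid cells, had a difference of 1.79, but its level at 0 h was 5.81 ± 1.37 (SD, n = 6) in LR12 and 9.19 ± 0.51 (SD, n = 4) in the peptide control. At 0 h all 4 peptide control animals were above every LR12 animal, and at 2 h the levels were 5.58 in LR12 and 7.17 in the peptide control. The endotoxin receptor genes TLR4 and CD14 had differences of -0.18 and 0.50, with intervals of -1.07 to 0.71 and -0.30 to 1.30, and 1 of the 4 probe sets of TLR4 carried the sign reported. The difference of CD14 was 0.17 without Y31305, and that of TLR4 ran from -0.36 to -0.045 when 1 animal was left out and was 0.19 with the poly-A covariate.

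Coagulation genes went both ways, with 3 higher and 3 lower of 14 measured, beside 3.3% and 14% of all genes, and 3 higher and 1 lower without Y31305. THBD, thrombomodulin, which turns thrombin to an anticoagulant role, changed by 0.78 to 1.37 in LR12, against 0.38, -0.073, -1.28 and -0.17 in the peptide control, a difference of 1.32 (adjusted p = 0.115) and 1.54 without Y31305. PLAU, urokinase, had 1.86 ± 0.57 (SD, n = 6) in LR12 and 0.61 ± 0.51 (SD, n = 4) in the peptide control. Its receptor PLAUR had 2.12 to 4.53 in LR12, against -0.17, 2.47, 2.26 and 0.17 in the peptide control, and its difference of 2.38 became 1.54 with the poly-A covariate. ANXA2, a membrane protein that gathers plasminogen, had -1.83 in LR12 and -0.14 in the peptide control, a difference of -1.68 (adjusted p = 0.115).

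The difference was below 0 for 16 of 18 platelet genes and 13 of 18 red cell genes, and none was called. The median over all genes was also below 0, at -0.16, and the share of all genes below 0 was not counted. The platelet markers had a median difference of -0.55 (-0.88 without Y31305; 5 lower), and the erythroid markers one of -0.42 (-0.57 without Y31305; 4 lower), beside 14% lower of all genes. Their medians in LR12 were 0.0028 and 0.33, against 0.53 and 0.79 in the peptide control. ITGA2B, the platelet integrin alpha IIb, had -0.21 in LR12 and 0.95 in the peptide control, and NRGN, a calmodulin-binding protein of platelets, had -0.67 in LR12 and 0.60 in the peptide control. SLC4A1, the anion exchanger of red cells, had 1.76, 0.14, 1.58, 2.10, 0.14 and -0.18 in LR12 animals, against 2.22, 2.32, 2.03 and 2.93 in peptide control animals, and its difference of -1.45 became -0.83 with the offset of 16. BLVRB, a flavin reductase of red cells, had -0.87 in LR12 and 0.80 in the peptide control, and AHSP, the chaperone of alpha hemoglobin, -0.10 in LR12 and 1.21 in the peptide control.

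Cell cycle genes had a median difference of -0.95, and -0.93 without Y31305. Of the 29 measured, 13 were lower and 0 higher, beside 14% and 3.3% of all genes. Without Y31305 11 were lower, beside 10% of all genes. TYMS, the enzyme that makes thymidylate for DNA synthesis, changed by -1.10 to -2.10 in LR12, against -0.068, -0.35, -0.41 and 0.30 in the peptide control, a difference of -1.46 (adjusted p = 0.112). MCM6, a subunit of the replication helicase, BIRC5, the survivin protein of dividing cells, and CDC20, an activator of mitotic exit, had differences of -1.92, -1.23 and -1.001. Of 22 heat shock and unfolded protein genes 6 were lower, beside 14% of all genes, with a median of -0.53 (-0.52 without Y31305). The mitochondrial chaperones HSPD1 and HSPA9 had differences of -1.31 and -0.97.

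Among the genes of purine and prostaglandin signalling, 7 of 22 were lower and 1 higher, beside 14% and 3.3% of all genes. Their median difference was -0.25. Without Y31305 the median turned to 0.06, with 5 lower and 0 higher, beside 10% and 2.61% of all genes. With the poly-A covariate the median was 0.16. PTGS1, cyclooxygenase 1, had -0.92 ± 0.40 (SD, n = 6) in LR12 and 0.52 ± 0.44 (SD, n = 4) in the peptide control, and PTGER4, a receptor for prostaglandin E, had -1.08 in LR12 and 0.56 in the peptide control. Of the MAP kinase phosphatases and RGS proteins, which switch off kinase and G protein signals, 6 of 17 were lower, beside 14% of all genes. Without Y31305 2 were lower, beside 10% of all genes. Their median difference was -0.52, and -0.32 without Y31305. RGS10 had -1.06 in LR12 and 0.077 in the peptide control, and RGS1 had 0.065 in LR12 and 1.13 in the peptide control, a difference of -1.07 that became -0.65 with the offset of 16. Eosinophil and basophil markers had a median of -0.36 (-0.64 without Y31305, -0.88 with the poly-A covariate). Of the 15 measured, 5 were lower, beside 14% of all genes. FCER1A, a chain of the IgE receptor, had -2.36 in LR12 and -0.49 in the peptide control. The mast cell protease gene CMA1 had -2.24 in LR12 and -0.81 in the peptide control.

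The remaining lists had medians that are read against the -0.16 of all genes, or -0.13 without Y31305. The 30 ribosomal protein genes had a median difference of -0.03 (-0.07 without Y31305), the 30 genes of oxidative phosphorylation -0.01 (-0.08), the 28 proteasome genes -0.15 (-0.14), and the 26 interferon response genes -0.15 (-0.13). With the poly-A covariate the median was 0.17 for oxidative phosphorylation, 0.02 for the proteasome and 0.0028 for the interferon response. Leaving out Y31305 turned the sign for the genes of glycolysis and hypoxia (0.20, and -0.01 without it), the anti-inflammatory mediators (0.10 and -0.23), the immediate early genes (0.06 and -0.05), the coagulation genes (0.02 and -0.26) and the adhesion and migration genes (-0.32 and 0.02). It brought the medians closer to 0 for the apoptosis regulators (0.18, and 0.01 without it), the metallothionein and iron list (0.16 and 0.03), the endotoxin recognition genes (0.28 and 0.11), the glucocorticoid-responsive genes (-0.26 and -0.06) and the chemokine receptors (-0.67 and -0.32). The inflammasome genes had 0.27, and 0.34 without Y31305. TNFSF10, the death ligand TRAIL, had a difference of 0.61.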

How the data were processed

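The deposited table held linear array intensities of 54675 probe sets on 56 arrays. The submitters' processing notes name MAS5, without a version, as the tool behind them. A mean trimmed by 2% lay between 150.03 and 150.04 on every array, so each was scaled to one level. Per the labels, 50 ng of RNA from PAXgene tubes was converted to labelled cDNA using a NuGEN kit for whole blood. The intensities were put on the log2 scale. Probe sets above the array median on at least 4 of the 56 arrays were kept (38767), and each of 16020 genes was read by its kept probe set of highest mean among those with 1 gene symbol (41097 probe sets had 1 symbol, 1801 several, 11777 none). Of the symbols, 13561 were in the macaque gene table.

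The change from 0 h to 2 h of each animal was fitted with limma 3.58.1 in R 4.3.3 (trend and robust moderation, two-sided) in 6 LR12 and 4 peptide control animals. Adjusted p values are Benjamini-Hochberg over all genes, called below 0.05. The pairing comes from the subject in the labels: after group means were removed, the correlation between the 0 h and 2 h arrays averaged 0.13 within animals (0.055 to 0.346) and -0.015 between animals. The script was tested on simulated data that gave both arms the spread of the LR12 animals, so the spread of the peptide control animals was not part of that test. The alternatives covered scaling, floor, offset, filter, pairing, probe set choice, control levels and each animal left out. A rule named 12 genes per direction (called and not overlapping between the arms, filled up by smallest p, with a mean above the array median in 1 group), any gene of a panel of 40, and up to 4 genes of smallest p of each other list. No set test was run on the 35 lists. The gene lists, the comparison and the rules were chosen with earlier results of these data known. The number of arrays limits the precision.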

Additional observations from a re-analysis of the deposited data

Results flagged for a closer look

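Of 186 sets of values tested for an animal far from the rest of its arm, 18 held one. The nominal rate of the test, about 1 in 20, is no yardstick here, since many genes were picked by p. Genes of 1 animal also do not vary independently. In 11 of the 18 the animal was Y31305 in the peptide control. Its changes were -0.66 for IL6, -0.21 for ICAM1, -0.27 for TNFAIP3, 0.16 for CD14, -0.62 for CSF1R, -0.24 for ADORA2B, 0.94 for PI3, -0.55 for OLFM4, 0.34 for HLA-DOB, 0.17 for NFKB2 and 0.98 for SLA2, each far from the other 3 peptide control animals. In the LR12 arm, Y31309 stood apart with 0.47 for CXCL10, -1.21 for LCK, 0.62 for CCR7 and 1.33 for ITGA2B. Y31311 had 2.72 for TRIM52-AS1, Y31310 had -5.90 for CSF1R, and Y31314 had -7.02 for ADORA2B. The cause was not tested for any of these.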

How the results depend on the processing

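The count of genes called for LR12 minus the peptide control was 0 in the fit reported and in every alternative but 5. It was 328 with an offset of 16 before log2, 142 with the stricter filter on dim probe sets, 188 with a replicate block as a random effect over all 56 arrays, 3 with no replicate block, and 1 without trend and robust moderation. The smallest adjusted p of the other settings ran from 0.0518 (centred arrays without Y31305) to 0.719. The offset and the filter change how dim values enter, and the random block borrows the spread of all 56 arrays. Whether this is why the counts moved was not tested, and neither was the cause of the other moves. Leaving out each animal gave 0 every time for this difference. In the peptide control the count of 0 became 1 with centred arrays, 664 with no replicate block, and 0 to 1028 when 1 animal was left out, with 1028 only without Y31305. In LR12 it stayed between 4715 and 5732 when 1 animal was left out. For the genes named, 2377 of 2508 values under alternatives kept their direction and side of the threshold, 94 passed it anew and 37 turned sign, all of these with differences that were not called.

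The sign turned as follows. TNF was 0.11 with quantile normalization and ran from -0.24 to 0.43 over single animals left out. TLR4 was 0.23 as the mean of its probe sets, 0.033 with the hybridization control covariate, 0.19 with the poly-A covariate, 0.11 with that covariate without Y31305, and 0.016 in one poly-A set with Y31306 counted as changed. The covariate of the hybridization controls gave -0.089 for CCL2, -0.0071 for TNFAIP3, -0.048 for NFKBIA and -0.50 for PI3. Animals with both arrays in one poly-A set gave -0.72 for CCL2, -0.052 for CXCL10, -0.51 for TNFAIP3, -0.35 for NFKBIA, -0.065 for IL1RN and -0.56 for PI3. With Y31306 counted as changed these were -0.15 for IL1B, -1.43 for CCL2, -0.28 for TNFAIP3, -0.67 for NFKBIA, -0.14 for IL1RN and -1.15 for PI3. The poly-A covariate gave -0.17 for CCL2, and without Y31305 it gave -0.60 for CCL2, -0.21 for TNFAIP3, -0.16 for NFKBIA and -0.60 for PI3. Centred arrays without Y31305 gave -0.34 for TNFAIP3, -0.13 for NFKBIA and -0.31 for PI3. Over single animals left out, CCL2 ran from -0.0027 to 2.00, TNFAIP3 from -0.36 to 1.17, NFKBIA from -0.15 to 0.57 and PI3 from -0.33 to 2.17, each lowest without Y31305. The poly-A covariate, its fit without Y31305, the set with Y31306 counted as changed and the centred fit without Y31305 were chosen after seeing the data.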

Other observations

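The animal labelled Y31303, of the vehicle arm, had changes to 2 h like those of the peptide arms: 3.46 for IL1B, 4.84 for ICAM1, 4.04 for TNFAIP3, 7.98 for PI3 and -4.45 for CSF1R. The other 3 vehicle animals had -0.77 to 0.99 for IL1B and -0.40 to 0.075 for ICAM1. Across genes, its change correlated with the mean change of the LR12 animals at 0.37 at 2 h, 0.49 at 4 h and 0.45 at 8 h. Its T cell genes had a median change of 0.57, the highest of the 14 animals, and its erythroid genes one of 1.71. At 4 h, with the same 0 h arrays subtracted, the difference LR12 minus the peptide control was -1.60 for LCK, -1.27 for CD7, -0.92 for PANX1, 1.88 for HAMP and -2.37 for IL6.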
